A study of Homo sapiens with 4 samples.

Results

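The genes described here are 43 named components, brakes and targets of the RAS-ERK pathway, chosen by gene symbol: RAS and RAF-MEK-ERK genes, the DUSP phosphatases, the SPRY and SPRED inhibitors, the ETV, EGR and AP-1 transcription factors, the IER genes with PHLDA1, and the EGF-like ligands. Of these, 42 had a row in the count table, which lists 15575 genes, and AREG was not analysed here. They were measured by RNA-seq in U251, an established human glioblastoma (GBM) cell line grown in medium with serum. Both groups carried a lentivirus, with the Ctrl cells (pGreen_Ctrl in the labels) receiving control shRNA and the PRMT3-KD cells receiving shRNA against PRMT3, a protein arginine methyltransferase, for 72 h. Each group had 2 libraries, 4 in all. The hairpin used for these libraries and whether the libraries of a group came from separate cultures are not given in the sources used here, so p-values measure the spread between these libraries, which may be technical.

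ERK signaling passes from RAS GTPases through RAF and MEK kinases to ERK, which activates transcription factors in the nucleus. Immediate early genes such as FOS and EGR1 are switched on within minutes of a stimulus without new protein synthesis. Many DUSP, SPRY and SPRED genes are induced by the pathway and act back on it as brakes. Some DUSP phosphatases, DUSP8 and DUSP10 among them, act on the related MAP kinases JNK and p38. In GBM this pathway is commonly driven by growth factor receptors such as EGFR, whose ligands include TGFA, HBEGF and EREG.

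Total counts lay between 24804250 and 29756313 per library, and values are given as CPM, counts scaled to the TMM-adjusted library size, whose factors lay between 0.955 and 1.025. PRMT3 itself was at 19.3 and 19.5 CPM in Ctrl libraries 1 and 2 and at 3.03 and 1.58 CPM in PRMT3-KD libraries 1 and 2. The Ctrl libraries differed little (chi-square of 1.41 per degree of freedom, where counting error gives 1), and the PRMT3-KD libraries differed much more, with 66.0; they were kept as 2 replicates each. Of 8 markers of U251 and neural lineage, VIM, CD44, SOX2 and NES were abundant, with NES at 786 and 779 CPM in Ctrl libraries and 458 and 825 CPM in PRMT3-KD libraries. L1CAM was at 107 to 110 CPM in 3 libraries and 204 CPM in PRMT3-KD library 2, S100B was at 1.93 to 2.82 CPM, GFAP was at 13.1 and 14.3 CPM in Ctrl libraries and 1.26 and 5.38 CPM in PRMT3-KD libraries, and OLIG2 was not analysed here. The summed level of 7 markers of other cell types was 62.5 and 66.4 CPM in Ctrl libraries and 110.5 and 154.6 CPM in PRMT3-KD libraries. KRT18 was the 1 marker past the threshold, as higher. It was at 32.4 and 34.1 CPM in Ctrl libraries and 74.1 and 98.15 CPM in PRMT3-KD libraries. CDH5 was at 5.05 to 5.31 CPM in 3 libraries and 25.4 CPM in PRMT3-KD library 2. Of the immune markers, PTPRC had at most 0.246 CPM. CD68 was at 23.99 and 25.59 CPM in Ctrl libraries and 29.63 and 29.74 CPM in PRMT3-KD libraries. The part of these differences in the results that follow was not tested.

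Knockdown of PRMT3 was followed by higher expression of 9 members, namely BRAF, DUSP1, DUSP5, DUSP8, DUSP10, SPRY4, FOS, FOSB and HBEGF, with fitted increases from 1.63-fold for BRAF to 10.7-fold for FOS. In bulk RNA, a change in the share of cells and a change in RNA per cell cannot be told apart. The 9 genes include brakes of MAP kinase signaling, AP-1 subunits and a ligand of EGFR. No member passed the threshold as lower. Past the threshold means an adjusted p under 0.05 (Benjamini-Hochberg, over 13172 genes) in the quasi-likelihood test of edgeR, together with a change of over 1.5-fold. Of the 42 members, 41 were tested, and EREG was below the low-count filter, with 6 counts in each Ctrl library and 4 in each PRMT3-KD library. Of all genes tested, 4.97% passed the threshold as higher and 5.97% as lower, against 9 and 0 of the 41 members. The members were chosen with earlier results of these data known. Such shares, here and below, therefore describe the list and are not a test of it.

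At an unadjusted p under 0.05 and over 1.5-fold in the same edgeR fit, 12 members were higher and 1, MAPK3, was lower, where 7.82% and 9.13% of all genes tested were. DESeq2, the tool named in the study's methods, passed 13 as higher and 2 as lower, against 6.65% and 7.84% of the 12661 genes to which it gave an adjusted p. With limma-voom, weighting each group by its variance, 11 and 2 members passed, against 5.98% and 6.85% of all genes tested. Both PRMT3-KD libraries lay above both Ctrl libraries for 22 of the 41 members and below them for 5, where 33.3% and 33.8% of all genes tested did so. The median log2 fold change was 0.49 over the 41 members and 0.0055 over all genes tested. The calls rested on both Ctrl libraries being present. Without Ctrl library 1 or Ctrl library 2, no gene passed with edgeR, with smallest adjusted p = 0.076 and 0.0541 (edgeR), and 10 members were higher and 1 was lower at an unadjusted p under 0.05 and over 1.5-fold in each case. At that limit 5.51% of all genes tested were higher and 6.67% lower without Ctrl library 1, and 5.48% and 6.84% without Ctrl library 2. With PRMT3-KD library 1 left out, 14 members passed as higher and 3 as lower, and 10.7% and 12.2% of all genes tested did. With PRMT3-KD library 2 left out, 22 members passed as higher and 1 as lower, against 10.1% and 12.2% of all genes tested. The number of all genes past the threshold thus also rose, from 1441 to 3066 and 2989. In those fits the remaining PRMT3-KD library is assumed to vary as little as the Ctrl pair. The value in each knockdown library is therefore given beside the fold change.

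**Figure D1:**
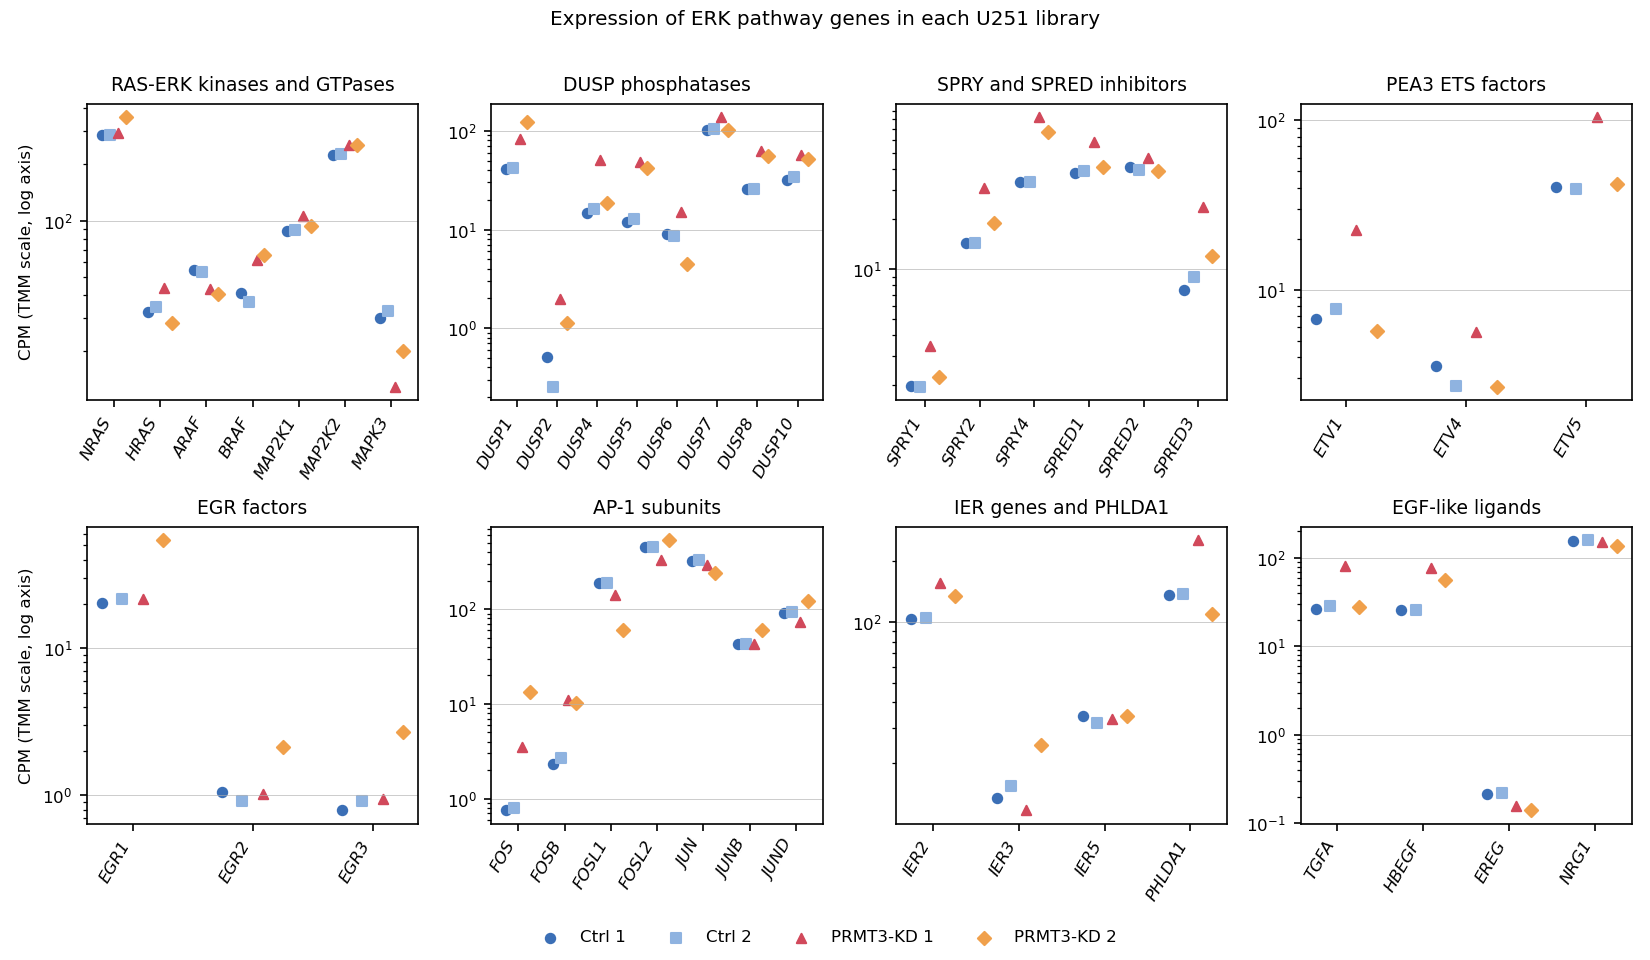
Expression of the 42 members in CPM (TMM scale, log axis) in each of the 4 libraries, in 8 panels by role. Circles and squares are Ctrl libraries 1 and 2, which nearly coincide, and triangles and diamonds are PRMT3-KD libraries 1 and 2, which lie apart for genes such as ETV1 (22.6 and 5.70 CPM) and EGR1 (21.7 and 54.1 CPM).

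Among the GTPases and kinases of the cascade, BRAF rose, MAPK3 was lower without passing the threshold, and RAS and MEK genes moved little. BRAF, the RAF kinase that phosphorylates MEK, lies on chromosome 7 of GRCh37 (the assembly known as hg19, to which the reads were aligned) from 140419127 to 140624729. It had 1132 and 1016 counts in Ctrl libraries and 1574 and 1850 after knockdown, or 40.9 and 36.9 against 61.9 and 65.1 CPM. Both PRMT3-KD libraries stood above both Ctrl libraries and close to each other. The log2 fold change was 0.71 (standard error, SE, 0.0913, edgeR adjusted p = 0.0208). The exons of BRAF overlap those of NDUFB2 on the opposite strand over 5.29% of their length, and the annotation holds a pseudogene, BRAFP1.

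MAPK3, which encodes ERK1 (chromosome 16, 30125426 to 30134827), had 30.3 and 32.8 CPM in Ctrl libraries and 12.95 and 20.02 CPM after knockdown. The groups did not overlap, but the PRMT3-KD libraries differed from each other. Its log2 fold change was -0.94 (SE 0.229, edgeR adjusted p = 0.0589), and it passed as lower with DESeq2 (adjusted p = 0.00277), limma-voom (adjusted p = 0.0194) and edgeR on library totals only (adjusted p = 0.0473). With PRMT3-KD library 1 or 2 left out, its log2 fold change was -0.65 and -1.29. ARAF, a RAF family kinase, went from 54.2 and 53.0 to 43.1 and 40.6 CPM, a log2 fold change of -0.36 (adjusted p = 0.0499, edgeR) that is smaller than 1.5-fold.

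NRAS was the most abundant gene of the group, with 285 CPM in each Ctrl library and 295 and 357 CPM after knockdown. Its log2 fold change was 0.19 (SE 0.113, edgeR adjusted p = 0.286). For HRAS, MAP2K1 and MAP2K2, which encode a RAS GTPase and the kinases MEK1 and MEK2, it was 0.10, 0.18 and 0.17, with standard errors of 0.222, 0.0900 and 0.0657. HRAS was at 43.5 CPM in PRMT3-KD library 1 and 28.4 CPM in library 2, on either side of the Ctrl values of 32.6 and 34.4 CPM. Scaled by the summed exon length of each gene, Ctrl levels were 66.0 CPM per kilobase for NRAS, 28.9 for MAP2K2, 15.7 for ARAF, 13.8 for HRAS, 13.7 for MAP2K1, 8.60 for MAPK3 and 1.66 for BRAF. HRAS and MAP2K1 did not differ in this order beyond the spread between libraries, and the exon length of BRAF, 23433 bases over all annotated transcripts, makes its value low.

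The DUSP genes encode dual-specificity phosphatases that remove phosphate from MAP kinases. All 8 had a log2 fold change above 0, and 4 passed the threshold. DUSP5, a nuclear phosphatase of ERK (chromosome 10, 112257665 to 112271291), had 331 and 353 counts in Ctrl libraries and 1215 and 1194 after knockdown. Its values of 11.9 and 12.8 CPM in Ctrl libraries and 47.8 and 42.0 CPM in PRMT3-KD libraries were far apart between the groups and close within them. The log2 fold change was 1.86 (SE 0.114, edgeR adjusted p = 0.0140).

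DUSP1, an immediate early phosphatase of p38, JNK and ERK (chromosome 5, 172195099 to 172198198), had 40.9 and 42.2 CPM in Ctrl libraries and 82.2 and 122 CPM in PRMT3-KD libraries. Both PRMT3-KD libraries were higher, library 2 more so, and the log2 fold change was 1.30 (SE 0.208, edgeR adjusted p = 0.0283). DUSP8, which acts on JNK and p38 (chromosome 11, 1575281 to 1593501), went from 25.98 and 25.95 CPM in Ctrl libraries to 62.3 and 55.1 CPM, a log2 fold change of 1.18 (SE 0.0982, edgeR adjusted p = 0.0143). The annotation holds 5 pseudogenes of DUSP8 and 2 of DUSP5. DUSP10, also a phosphatase of JNK and p38 (chromosome 1, 221874766 to 221915431), went from 31.8 and 33.8 to 57.5 and 52.4 CPM, a log2 fold change of 0.74 (SE 0.0933, edgeR adjusted p = 0.0203). In each of these genes the groups were separate.

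The other DUSP genes differed between the PRMT3-KD libraries. DUSP6, the cytoplasmic ERK phosphatase whose transcript is widely used as a readout of ERK activity, had 8.95 and 8.69 CPM in Ctrl, 15.2 CPM in PRMT3-KD library 1 and 4.43 CPM in library 2. One PRMT3-KD library was thus above and the other below both Ctrl libraries, and the log2 fold change was 0.15 (SE 0.587, edgeR adjusted p = 0.879). Its value was 0.78 without library 2 and -0.99 without library 1. DUSP4, an inducible nuclear phosphatase, was at 14.8 and 16.0 CPM in Ctrl libraries and 50.6 and 18.4 CPM in PRMT3-KD libraries, a log2 fold change of 1.16 (SE 0.501, edgeR adjusted p = 0.173), which passed without library 2 (1.72) and with DESeq2 (adjusted p = 0.0218). DUSP2, a nuclear ERK phosphatase, had only 14 and 7 counts in Ctrl libraries and 50 and 32 after knockdown (log2 fold change 2.01, adjusted p = 0.0617, edgeR). It passed with DESeq2, and with PRMT3-KD library 1 or 2 left out its log2 fold change was 1.56 and 2.35. DUSP7, an ERK phosphatase and the most abundant of the group, had 101 and 105 CPM in Ctrl libraries and 138 and 101 CPM in PRMT3-KD libraries (log2 fold change 0.21, SE 0.164, edgeR adjusted p = 0.398).

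Sprouty and SPRED proteins are inducible inhibitors that act on the RAS-RAF step. All 6 had a log2 fold change above 0, all 6 were higher in PRMT3-KD library 1 than in library 2, and SPRY4 passed the threshold. SPRY4 (chromosome 5, 141689992 to 141706020) had 929 and 921 counts in Ctrl libraries and 2096 and 1918 after knockdown. At 33.5 CPM in each Ctrl library and 82.5 and 67.5 CPM in PRMT3-KD libraries, the groups were separate. Its log2 fold change was 1.16 (SE 0.123, edgeR adjusted p = 0.0182).

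SPRY2 had 14.4 CPM in each Ctrl library and 30.7 and 18.9 CPM in PRMT3-KD libraries, a log2 fold change of 0.78 (SE 0.255, edgeR adjusted p = 0.102). SPRED3 went from 7.54 and 9.05 CPM to 23.7 and 12.1 CPM, a log2 fold change of 1.11 (SE 0.357, edgeR adjusted p = 0.101). In both genes the groups were separate but the PRMT3-KD libraries spread widely. Both passed with DESeq2 (adjusted p = 0.0231 and 0.0100) and with limma-voom. Without PRMT3-KD library 2 the values were 1.09 and 1.51, and without library 1 they were 0.39 and 0.55. SPRY1 was low, with 1.97 ± 0.0154 CPM in Ctrl libraries and 2.86 ± 0.856 CPM after knockdown (SD, n = 2 per group). SPRED1 and SPRED2 had log2 fold changes of 0.37 and 0.09 (standard errors 0.184 and 0.118), with SPRED2, the group's most abundant gene in Ctrl, at 41.4 and 39.6 CPM in Ctrl libraries and 46.9 and 39.1 CPM in PRMT3-KD libraries (adjusted p = 0.634, edgeR). Without PRMT3-KD library 2, SPRY1 and SPRED1 had log2 fold changes of 0.81 and 0.60, and without library 1 of 0.19 and 0.11.

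**Figure D2:**
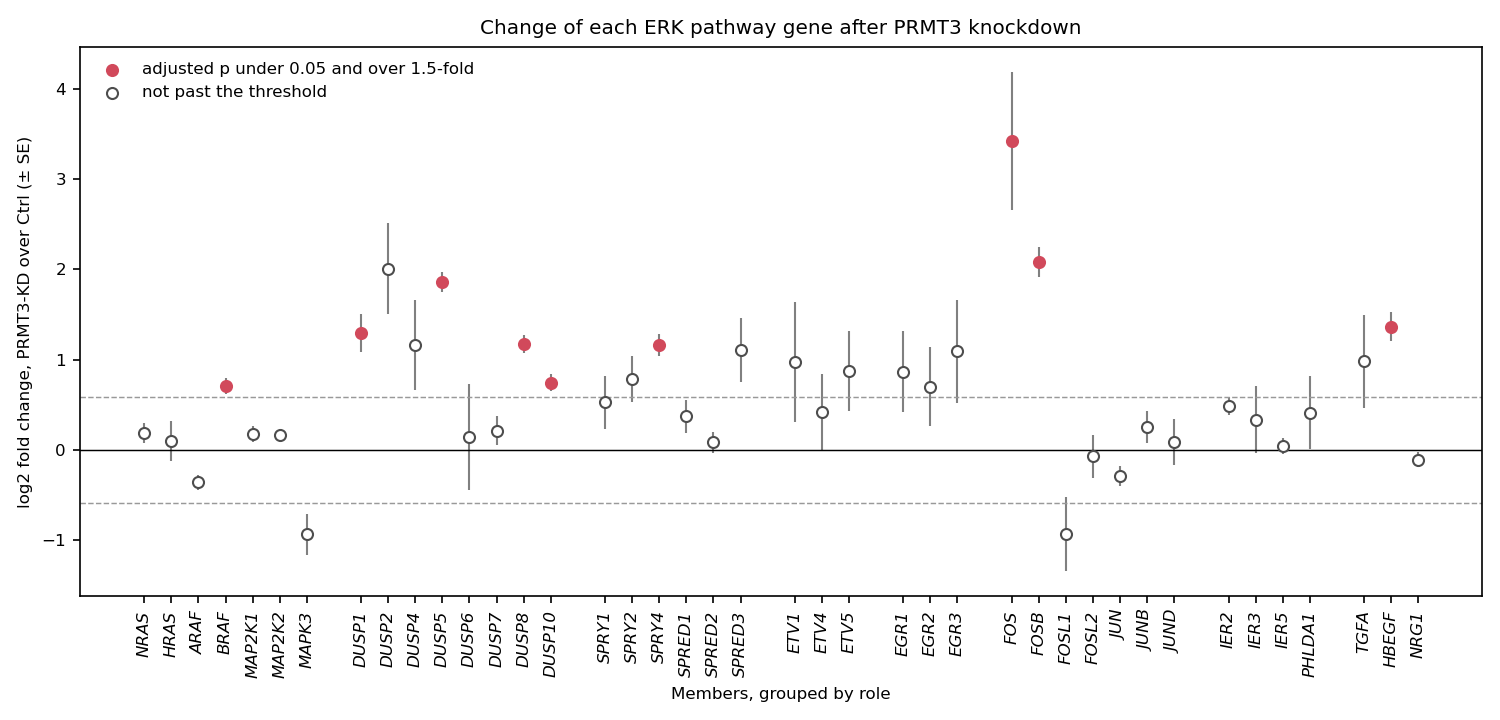
Log2 fold change of PRMT3-KD over Ctrl for the 41 members tested, grouped by role, with bars of 1 standard error. Filled points are the 9 genes past the threshold, open points the other 32, and dashed lines mark a 1.5-fold change.

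ETV1, ETV4 and ETV5 form the PEA3 family of ETS transcription factors, whose transcripts follow ERK activity in many cell types. None passed the threshold in edgeR, and at an unadjusted p under 0.05 and over 1.5-fold none did so either; DESeq2 and limma-voom passed none at an adjusted p under 0.05. All 3 were far above Ctrl in PRMT3-KD library 1 and near or below it in library 2. ETV5 had 40.3 and 39.3 CPM in Ctrl, 104 CPM in PRMT3-KD library 1 and 41.9 CPM in library 2, a log2 fold change of 0.87 (SE 0.444, edgeR adjusted p = 0.229). ETV1 had 6.68 and 7.67 CPM in Ctrl libraries and 22.6 and 5.70 CPM in PRMT3-KD libraries, and ETV4 had 3.54 and 2.69 CPM in Ctrl libraries and 5.67 and 2.68 CPM. For ETV1 and ETV4, library 1 was above both Ctrl libraries and library 2 below both, for ETV4 by a margin of few counts. Without library 2, ETV1, ETV4 and ETV5 had log2 fold changes of 1.65, 0.86 and 1.38. Without library 1 these were -0.33, -0.22 and 0.07.

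The EGR genes encode zinc finger transcription factors of the immediate early class, and they differed in the opposite way. EGR1 had 20.2 and 21.5 CPM in Ctrl, 21.7 CPM in PRMT3-KD library 1 and 54.1 CPM in library 2. EGR2 had 29 and 25 counts in Ctrl and 26 and 61 in PRMT3-KD libraries, and EGR3 had 22 and 25 against 24 and 76 counts. For each, PRMT3-KD library 1 lay near the Ctrl level and library 2 was above it. The log2 fold changes were 0.87, 0.70 and 1.09 (SE 0.448, 0.441 and 0.570, edgeR adjusted p = 0.236, 0.314 and 0.238), so none passed. With library 1 left out, the values were 1.38, 1.13 and 1.65, and with library 2 left out they were 0.06, 0.06 and 0.15.

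AP-1 is a dimer of FOS and JUN family proteins. FOS and FOSB rose from low levels, FOSL1 was lower without passing the threshold, and JUN genes stayed below the 1.5-fold limit. FOSB (chromosome 19, 45971253 to 45978437) had 64 and 74 counts in Ctrl libraries and 278 and 292 after knockdown. The PRMT3-KD libraries were nearly equal, at 10.9 and 10.3 CPM, and both stood above the 2.31 and 2.69 CPM of Ctrl, a log2 fold change of 2.08 (SE 0.166, edgeR adjusted p = 0.0142). FOS (chromosome 14, 75745529 to 75748933) was at 0.758 and 0.7996 CPM in Ctrl libraries and 3.50 and 13.2 CPM in PRMT3-KD libraries. Both knockdown values were above the Ctrl values, by 2.17 on the log2 scale in library 1 and 4.09 in library 2. Its adjusted p of 0.0495 (edgeR) was close to the limit, with a standard error of 0.763.

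FOSL1, which encodes FRA1, a FOS family protein abundant in mesenchymal tumor cells, went from 189 and 190 CPM to 139.5 and 60.04 CPM. The groups were separate and library 2 was the lower, with a log2 fold change of -0.93 (SE 0.409, edgeR adjusted p = 0.179). It passed as lower with DESeq2 and limma-voom, and its value was -1.66 without PRMT3-KD library 1 and -0.45 without library 2. FOSL2 was the most abundant AP-1 gene, with 449 and 455 CPM in Ctrl libraries and 329 and 532 CPM in PRMT3-KD libraries, a log2 fold change of -0.07 (SE 0.239, edgeR adjusted p = 0.861) between groups that overlapped. JUN went from 324 and 329 to 291 and 243 CPM (log2 fold change -0.29, SE 0.109, edgeR adjusted p = 0.134), JUNB from 43.3 and 42.9 to 42.8 and 60.1 CPM, and JUND from 92.0 and 94.0 to 73.9 and 123.5 CPM. JUNB exons overlap HOOK2 on the opposite strand over 14.2% of their length, and whether counting used strand is not given in the sources used here. Per kilobase of exon, FOSL1 at 100.6 and JUN at 90.2 CPM led the group in Ctrl, and FOS at 0.244 CPM was the lowest, while in PRMT3-KD libraries FOS was at a mean of 2.63 and FOSL1 at 52.9 CPM per kilobase.

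Promoters of these genes hold letters known as binding motifs of the factors downstream of ERK and related kinases. The RefSeq promoter table (build GRCh38.p14) had an entry for 34 of the 42 members, and the 250 bases before the RefSeq start site were searched on both strands. The motifs were the CRE, TGACGTCA, bound by CREB and ATF proteins; its core, TGACG, which is also counted inside a whole CRE; the AP-1 site, TGANTCA; an ETS site, CCGGAA; and the CArG box, bound by SRF. A CRE core was present in 18 of the 34 promoters, among them those of FOS, FOSB, BRAF, DUSP1, DUSP8 and SPRY4, against 21.2% of 35116 promoters in the table and 28.2% of those of genes in the count table. It was present in 6 of the 8 members past the threshold that had an entry and in 12 of the other 26. Those 12 were ARAF, MAP2K1, SPRY2, ETV1, EGR1, FOSL2, JUN, JUNB, JUND, IER2, TGFA and EREG. A link between the motif and the change in expression was not tested. A whole CRE was found in DUSP1, DUSP8 and JUND (1.65% of all promoters and 2.73% of those of genes in the count table), an ETS site in 8 members (14.5% and 22.9%), an AP-1 site in SPRED3 (6.57% and 4.46%), and CArG boxes in EGR1 (1.16% and 1.08%). These matches describe the letters of this window only.

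The sequences of FOS and FOSB are shown as the AP-1 genes that rose, those of DUSP1 and DUSP8 as the phosphatase genes with a whole CRE, and that of EGR1 as the one with CArG boxes. Each is given 5′ to 3′ on the strand of the gene and ends at the base before the start site, with the motif letters in capitals. By exact match to GRCh37 they lie at chr14:75745281-75745530 (plus strand), chr19:45971004-45971253 (plus), chr5:172198199-172198448 (minus), chr11:1593502-1593751 (minus) and chr5:137800918-137801167 (plus).
FOS: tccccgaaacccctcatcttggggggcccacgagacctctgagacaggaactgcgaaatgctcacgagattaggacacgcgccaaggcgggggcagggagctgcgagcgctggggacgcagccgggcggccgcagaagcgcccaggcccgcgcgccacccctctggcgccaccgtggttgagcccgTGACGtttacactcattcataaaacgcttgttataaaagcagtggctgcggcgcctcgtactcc
FOSB: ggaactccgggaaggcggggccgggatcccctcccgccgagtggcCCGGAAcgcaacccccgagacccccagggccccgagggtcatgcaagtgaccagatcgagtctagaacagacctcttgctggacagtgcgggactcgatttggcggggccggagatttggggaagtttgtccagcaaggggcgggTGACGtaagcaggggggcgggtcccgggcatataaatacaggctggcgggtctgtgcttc
DUSP1: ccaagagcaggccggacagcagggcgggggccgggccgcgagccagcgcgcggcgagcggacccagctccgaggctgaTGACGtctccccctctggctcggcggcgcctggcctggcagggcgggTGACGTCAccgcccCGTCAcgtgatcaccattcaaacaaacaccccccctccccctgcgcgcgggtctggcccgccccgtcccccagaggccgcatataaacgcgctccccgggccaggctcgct
DUSP8: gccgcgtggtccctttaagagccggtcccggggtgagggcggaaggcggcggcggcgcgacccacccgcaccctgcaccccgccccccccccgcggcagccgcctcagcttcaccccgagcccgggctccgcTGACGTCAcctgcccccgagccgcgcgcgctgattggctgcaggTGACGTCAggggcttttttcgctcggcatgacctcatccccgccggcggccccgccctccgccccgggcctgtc
EGR1: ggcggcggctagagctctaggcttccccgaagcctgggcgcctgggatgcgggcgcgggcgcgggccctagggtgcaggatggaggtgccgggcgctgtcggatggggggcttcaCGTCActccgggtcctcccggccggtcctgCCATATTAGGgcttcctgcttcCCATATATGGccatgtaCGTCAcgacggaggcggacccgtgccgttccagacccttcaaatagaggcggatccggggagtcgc
The capitals in FOS mark a CRE core at -64 to -60 from the start, and those in FOSB an ETS site and a CRE core at -60 to -56. DUSP8 carries a whole CRE at 2 places, DUSP1 at 1 place beside other cores, and EGR1 carries 2 CArG boxes between 2 cores. FOS and FOSB had the largest fitted increases among the 9 genes, and EGR1 stood well above Ctrl in PRMT3-KD library 2 alone.

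**Figure D3:**
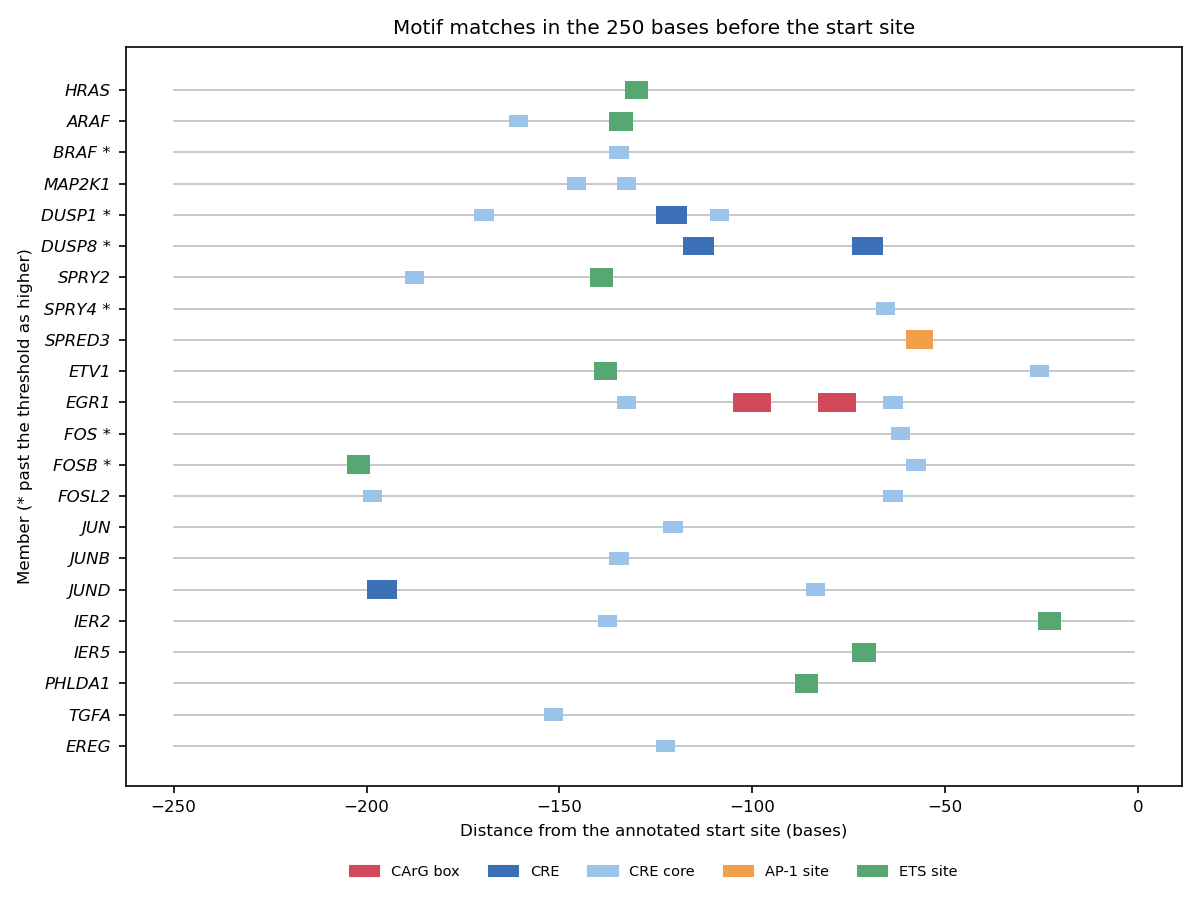
Motif matches in the 250 bases before the annotated start site (x axis, distance in bases) of the 22 members with at least 1 match, each on its own line. Colors mark the 5 motifs, a CRE core inside a whole CRE is hidden by it, and asterisks mark members past the threshold as higher. CRE cores lie between -68 and -56 in FOS, FOSB and SPRY4, and also in EGR1 and FOSL2, which did not pass the threshold.

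IER2, IER3 and IER5 are immediate early genes, and PHLDA1 is an ERK-induced gene of the pleckstrin homology family. None of the 4 passed the threshold; 0 had an unadjusted p under 0.05 with over 1.5-fold in edgeR, and 0 passed with DESeq2 or limma-voom. IER2 went from 103 and 104 CPM to 156 and 134 CPM, with separate groups and a log2 fold change of 0.49 (SE 0.0995, edgeR adjusted p = 0.0424) that is smaller than 1.5-fold. PHLDA1, the most abundant of the group, had 136 and 137 CPM in Ctrl, 254 CPM in PRMT3-KD library 1 and 110 CPM in library 2, so that the knockdown values lay on both sides of Ctrl (log2 fold change 0.41, SE 0.404, edgeR adjusted p = 0.508). IER3 differed the other way, with 13.5 and 15.5 CPM in Ctrl libraries and 11.7 and 24.7 CPM in PRMT3-KD libraries. IER5 was at 31.6 to 34.4 CPM in all 4 libraries. Without PRMT3-KD library 2, PHLDA1 and IER2 had log2 fold changes of 0.89 and 0.59, and without library 1 IER3 had 0.78.

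Of the EGF-like ligands, HBEGF rose. HBEGF, a membrane-bound ligand of EGFR and ERBB4 that is released by cleavage, lies on chromosome 5 from 139712428 to 139726188. It had 715 and 709 counts in Ctrl libraries and 1936 and 1616 after knockdown, or 25.8 CPM in each Ctrl library against 76.2 and 56.9 CPM. The groups were well separated, with a log2 fold change of 1.37 (SE 0.164, edgeR adjusted p = 0.0198). TGFA, another EGFR ligand, had 26.5 and 28.7 CPM in Ctrl, 81.1 CPM in PRMT3-KD library 1 and 27.9 CPM in library 2. Only library 1 was above Ctrl. The log2 fold change of 0.98 (SE 0.520, edgeR adjusted p = 0.245) became 1.55 without library 2 and 0.02 without library 1. NRG1, a ligand of ERBB3 and ERBB4 and the most abundant of these genes, had 154 and 158 CPM in Ctrl libraries and 152 and 138 CPM in PRMT3-KD libraries (log2 fold change -0.11, SE 0.0822, edgeR adjusted p = 0.40). EREG was at or below 0.218 CPM in every library.

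The PRMT3-KD libraries were therefore set against the Ctrl mean apart. Between them, 13 of the 41 members differed by over 2-fold, where 6.54% of all genes tested did, and the median absolute log2 difference was 0.61 over the members and 0.24 over all genes tested. DUSP4, DUSP6, ETV1, ETV4, ETV5, PHLDA1, TGFA and FOSL1 were higher in library 1, and FOS, EGR1, EGR2, EGR3 and IER3 were higher in library 2. Library 1 was above library 2 for 7 of 8 DUSP genes, 6 of 6 SPRY and SPRED genes, 3 of 3 ETV genes, 3 of 3 ligands tested and 0 of 3 EGR genes, and for 53.6% of all genes tested. Each library is a single sample, so these differences have no replicate check. The library with the lower PRMT3 level, the larger total count and the higher share of counts in its 10 most abundant genes (8.63% against 6.56%) was library 2, and the part of these in the differences was not tested. The 9 members past the threshold were higher in both libraries, a direction that the choice of these genes favours. Of them, BRAF, DUSP5, DUSP8, DUSP10, SPRY4 and FOSB differed between the libraries by at most 0.29 on the log2 scale. The threshold also favours such closeness, because the test weighs a change against the spread between libraries. For DUSP1, FOS and HBEGF the log2 ratio of library 2 to library 1 was 0.57, 1.92 and -0.42.

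**Figure D4:**
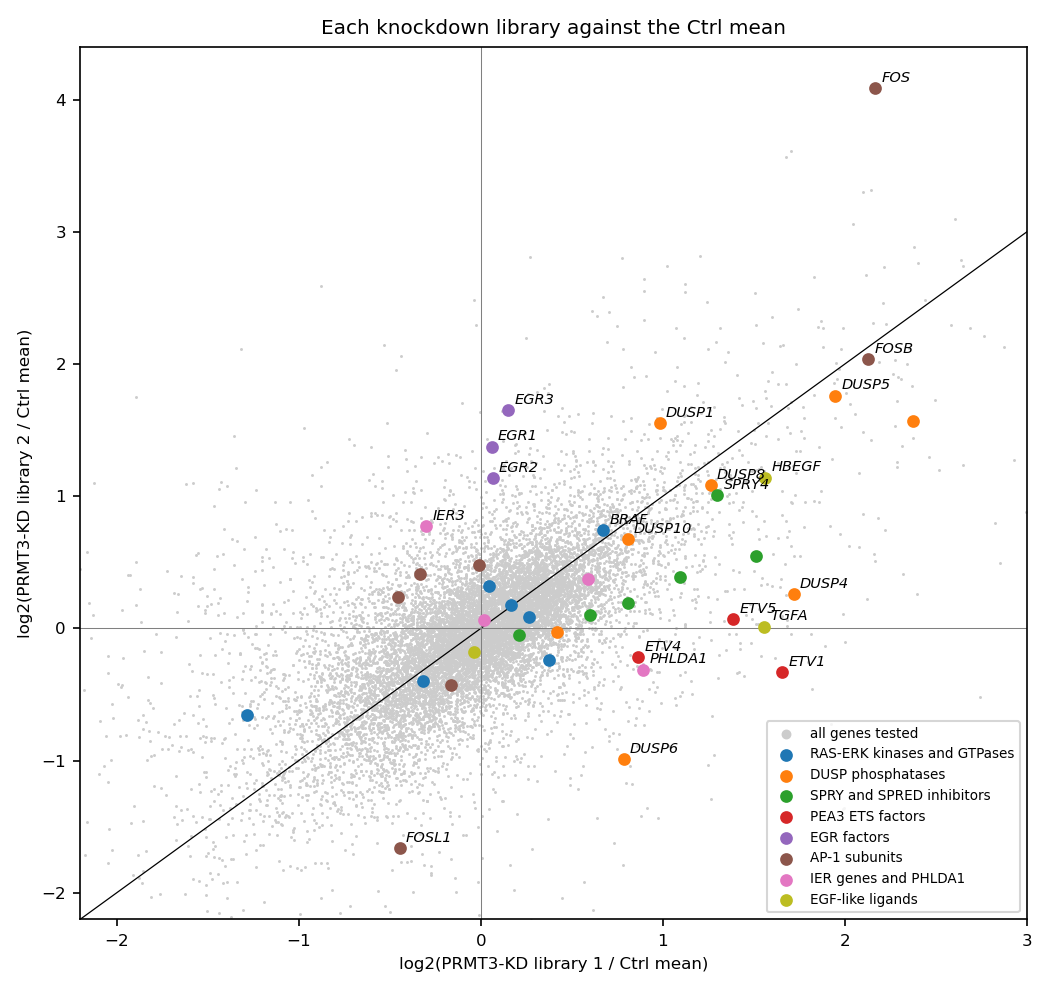
Log2 ratio to the Ctrl mean in PRMT3-KD library 1 (x axis) and library 2 (y axis) for the members, colored by role, and for all genes tested (grey, a few beyond the axes not drawn), with a line of equal values. Both axes share the Ctrl libraries; the EGR genes lie above the line, ETV genes, TGFA, DUSP4 and DUSP6 below it, and FOSB, DUSP5, DUSP8 and SPRY4 near it. Named points are past the threshold or differ by over 2-fold between the libraries.

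Other genes of the pathway were taken from 4 lists. Of 24 cascade components tested, 2 passed the threshold as higher, with a median log2 fold change of 0.23 over the list. The RAS-related GTPase MRAS rose from 25.4 and 25.2 CPM to 51.2 and 62.6 CPM (log2 fold change 1.17, edgeR adjusted p = 0.0185), with separate groups. The RAS GTPase-activating gene RASA2 went from 11.8 and 10.4 CPM to 18.5 and 16.9 CPM (log2 fold change 0.67, edgeR adjusted p = 0.0365).

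Of 22 other immediate early genes tested, CSRNP1, TIPARP and ZFP36 passed the threshold, all higher, with a median of 0.51. MYC, at 86.0 and 85.9 CPM in Ctrl libraries and 65.2 and 50.9 CPM in PRMT3-KD libraries, was under 1.5-fold lower and did not pass (log2 fold change -0.57, adjusted p = 0.0588, edgeR). ZFP36, an RNA-binding protein that shortens the life of cytokine transcripts, went from 12.5 and 13.1 CPM to 19.5 and 27.3 CPM (log2 fold change 0.87, adjusted p = 0.0481, edgeR). Of 18 other ERK output genes tested, EPHA4, PLAUR and PHLDA2 rose, with a median of 0.16. PLAUR, the urokinase receptor, went from 109 CPM in each Ctrl library to 322 and 192 CPM, and CCND1, the D-type cyclin of the G1 phase, was at 522 and 530 CPM in Ctrl libraries and 491 and 238 CPM in PRMT3-KD libraries (log2 fold change -0.53, adjusted p = 0.340, edgeR).

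Of 14 genes for ERBB receptors, other ligands, brakes and shedding proteases, LRIG3 alone passed the threshold, as lower (log2 fold change -0.75, adjusted p = 0.0310, edgeR). EGFR, the receptor of HBEGF and TGFA, was at 169 and 166 CPM in Ctrl libraries and 195 and 176 CPM in PRMT3-KD libraries (log2 fold change 0.15, SE 0.0821, edgeR adjusted p = 0.266), and the protease ADAM17, which releases both ligands, overlapped between the groups. LRIG1, CBL and ADAM10 had adjusted p between 0.0201 and 0.0242 (edgeR) with log2 fold changes of 0.58, 0.57 and 0.56, under 1.5-fold. Over the 78 tested genes of the 4 lists, 8 rose, or 10.3%.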

How the data were processed

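The authors aligned reads to hg19 with TopHat and made gene read counts with Cufflinks; versions and the gene annotation are not given in the sources used here. The deposited table holds whole-number counts for 15576 rows, of which 1 identical duplicate was removed. Positions and exon lengths came from GENCODE 44 lifted to GRCh37, which holds 99.9% of the identifiers. Libraries were grouped by their labels.

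Counts were tested in R 4.3.3 with edgeR 4.0.16 (filterByExpr with minimum count 10 and minimum total 15, TMM, glmQLFit, glmQLFTest) on all 13172 genes that passed, and standard errors were derived from the fold change and the F statistic. An exact two-sided permutation test of 2 against 2 libraries cannot go below p = 0.333. Alternatives were DESeq2 1.42.0, limma-voom (limma 3.58.1) with group weights, other scalings and filters, the replicate number as a block, no fold limit and leaving out each library. The members and lists were chosen with earlier results of these data known. Counts of genes and medians describe lists, without a set test. Full statistics were given for members past the threshold and for the most abundant member of each role, and values of others were chosen after they were seen. From the further lists, genes past the threshold were named by rule, and MYC, CCND1, EGFR, ADAM17, LRIG1, CBL and ADAM10 after their values were seen. Some genes of these lists are not reported here.

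The fits were tested on simulated counts with the real means, library sizes and group spreads and 200 genes changed by 1.5 on the log2 scale. For PRMT3-KD against Ctrl, edgeR recovered 117 of 200 among 13172 genes with 0 false calls, and DESeq2 197 with 4. Recovery was therefore not shown for members with few counts. Neither recovery nor false calls were shown for members whose PRMT3-KD libraries lay far apart, such as DUSP6, ETV1 and FOS. Depth limits the precision of genes with few counts, such as EREG, DUSP2, EGR2 and EGR3.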

Additional observations from a re-analysis of the deposited data

How the results depend on the processing

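The 9 members past the threshold remained so, all higher, with DESeq2, upper-quartile scaling, library totals, both other filters, the replicate block and limma-voom. Members past the threshold as lower numbered 2 with DESeq2, 1 with library totals only, 1 with the replicate block, 2 with limma-voom and 1 with no fold limit; without 1 library they ranged from 0 to 3, those higher from 0 to 22, and all genes from 0 to 3066, 0 being the value without either Ctrl library. All genes past the threshold were 1441, and 2278 with no fold limit. In the 4 further pathway lists, with alternatives added after the data were seen, 13 genes were higher with DESeq2 and 5 with library totals only, and without 1 library 0 to 23 were higher and 0 to 9 lower.

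The replicate numbers share only a number: replicate differences correlated at 0.0199 over 13062 genes between the groups. The replicate block passed 10 members as higher, adding DUSP2, and 1 as lower, MAPK3. DUSP6 reversed to -0.066 with the block and to -0.14 with limma-voom, within its error. With a library left out, values ranged from -0.24 to 0.37 for HRAS, -0.99 to 0.78 for DUSP6, -0.022 to 0.42 for DUSP7, -0.047 to 0.21 for SPRED2, -0.33 to 1.65 for ETV1, -0.22 to 0.86 for ETV4, -0.46 to 0.24 for FOSL2, -0.015 to 0.48 for JUNB, -0.34 to 0.41 for JUND, -0.31 to 0.78 for IER3, -0.014 to 0.10 for IER5 and -0.31 to 0.89 for PHLDA1. The cause of these changes was not tested. A setting with 1 PRMT3-KD library takes its spread from the Ctrl pair.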
